A study of Rattus norvegicus with 12 samples.

Results

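The comparison described here sets vein grafts taken 28 days after surgery against vein grafts taken at 7 days, that is, the net change between the first and the last time at which the graft was sampled. Its members are the 3 arrays labelled as day 28 and the 3 labelled as day 7, 6 of the 12 arrays in the series, chosen by that label alone. In both groups the tissue was vein from male rats in which an external jugular vein had been joined to the carotid artery as a bypass. The other 6 arrays held grafts of day 14 and veins of rats without surgery (day 0). Their levels appear below only as reference, but all 12 arrays entered the fit that gave the standard errors and p-values. The design text calls the 3 samples of a graft day independent experiments. Strain, age, and whether an array held 1 animal or a pool are not stated in the labels, and no treatment other than the surgery is named. The p-values measure the spread between samples within each of the 4 days, part of which may be technical.

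A vein that is moved into an artery meets pressure and flow for which its wall was not built. It is known to lose much of its endothelial lining early, to fill with leukocytes, and then to be re-covered by endothelium while its wall thickens through smooth muscle, fibroblasts and matrix. Whole-tissue RNA follows all of these cells at once, and in such samples fewer cells of a type and less RNA per cell cannot be told apart. Levels below are log2 intensities minus the 75th percentile of the array, so that 0 is that percentile and 1 unit is a doubling. Differences are day 28 minus day 7, given with the standard error from limma, with 3 arrays per day and p-values adjusted over all 24684 gene probes.

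All 12 measured markers of contractile smooth muscle and all 9 of endothelium were well above background on each of the 6 arrays. So were 73.9% to 82.6% of all gene spots, and 11 or 12 of 12 skeletal muscle markers, so passing that criterion does not by itself identify the tissue. The 3 day 7 arrays were not alike. Replicates 1 and 2 correlated at 0.994 over all probes, while replicate 3 correlated with them at 0.965 and 0.954 and had 393 spots marked as non-uniform against 3 and 2. Replicates 1 and 2 of day 7 correlated with the day 28 arrays at 0.971 to 0.983, more closely than with replicate 3 of their own day. Eln, which encodes elastin, shows the gap: it read 6.57, 6.92 and 1.01 on day 7 replicates 1, 2 and 3. The day 28 arrays correlated with one another at 0.981 to 0.991. No scan, as read from the scan time in the file headers, held arrays of both days: all 3 day 7 arrays were scanned together, day 28 replicates 1 and 2 in another scan and replicate 3 in yet another, so that scan and day are linked only through day 14 arrays.

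Between day 7 and day 28, 346 probes passed an adjusted p of 0.05 (limma), which is 1.4% of those tested. Of these, 137 (0.555%) were higher and 209 (0.847%) were lower at day 28, and 334 differed by at least 2-fold. For all 346 the levels of one day lay wholly above those of the other, as they did for 32.8% of all probes. The largest rise among named genes was that of Myh4, a myosin of fast skeletal muscle, and the 15 largest falls included genes known from neutrophils and from nerve cells. Of 19 genes that answer interferon 7 were lower at day 28, while 2 of 9 endothelial markers and 2 of 9 fat cell markers were higher. With the scan as a random block these counts were 1, 0 and 1. The median difference over all probes was -0.03.

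**Figure D1:**
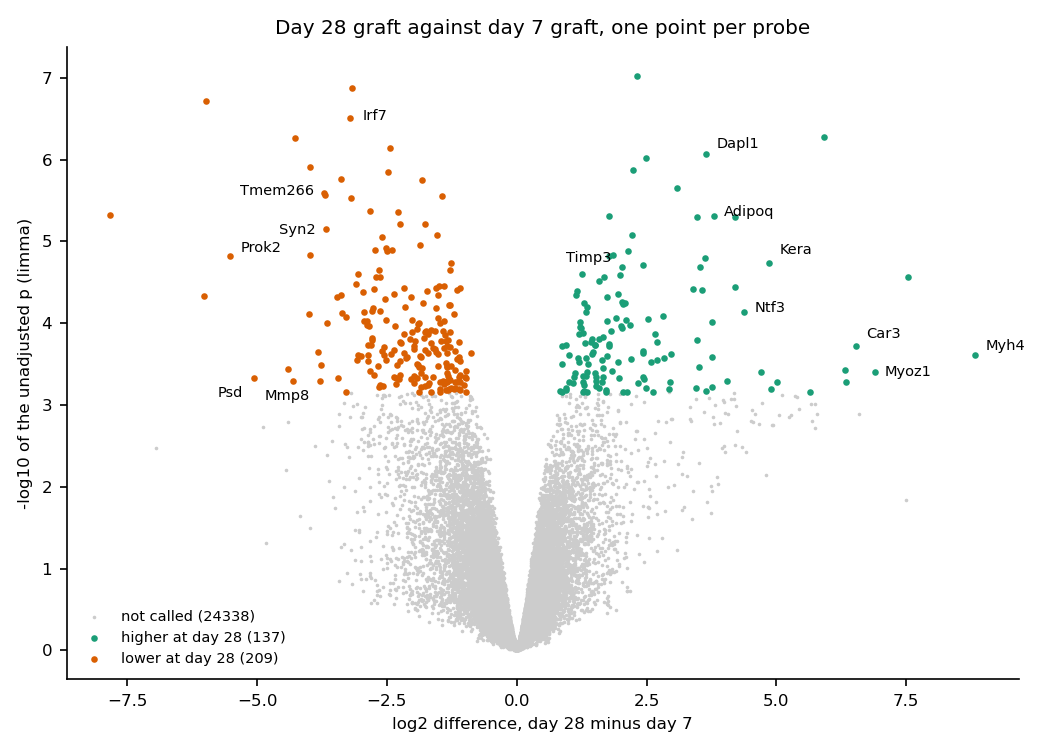
Each point is one of 24684 probes, with the log2 difference (day 28 minus day 7) on the horizontal axis and -log10 of the unadjusted limma p on the vertical axis. The 137 called probes to the right were higher at day 28 and the 209 to the left were lower, with Myh4 farthest right at 8.83.

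The number of calls rested on single arrays. It was 48, 332 and 470 without day 7 replicate 1, 2 or 3, and 34, 281 and 65 without day 28 replicate 1, 2 or 3. Of the 346 probes, 46, 221 and 230 stayed called in the same direction in the first set of fits and 34, 183 and 58 in the second. With the scan as a random block 140 were called, and with the scan as a fixed block 0 were called and 795 had an unadjusted p under 0.05. The split between higher and lower also moved with the scaling, from 137 against 209 to 195 against 194 under quantile normalization and to 204 against 201 in the deposited processed table. None of the 346 probes changed sign in any of these settings, of which the deposited table holds 342.

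Interferons act through transcription factors, Stat2 and Irf9 among them, that bind a short element in promoters and switch on a set of antiviral and chemokine genes, and Irf7 is both a product and an amplifier of that loop. Of 19 measured genes of this response, 7 were lower at day 28 and 0 were higher, and all 19 differences were negative, with a median of -1.62 against 0.02 over all 13903 genes with a symbol, of which 48.7% were negative. Day 28 lay below day 7 on all 3 arrays for 13 of the 19, against 17.3% of all probes. The regulator Irf7 was read at 5.43, 5.23 and 5.92 on the day 7 replicates and at 2.33, 2.48 and 2.13 on those of day 28. The groups were far apart and each was tight. Irf7 fell by 3.22 ± 0.28 on the log2 scale, 9.28-fold (adjusted p = 0.00191, limma), and it stayed called in 19 of 20 alternative settings, the exception being the fixed scan block.

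Among the effectors, Oasl, a relative of the sensors of double-stranded RNA, stood at 2.45, 1.31 and 3.25 at day 7 and at -0.49, -0.38 and -0.53 at day 28, a fall of 2.81 ± 0.50 on the log2 scale (adjusted p = 0.0275). Ifit3, which restrains viral translation, went from 2.90, 2.09 and 3.82 to 0.67, 0.93 and 0.29, a difference of -2.30 ± 0.44 (adjusted p = 0.0351). Isg15, a ubiquitin-like protein that is attached to other proteins, went from 3.20, 2.78 and 4.03 to 1.15, 1.44 and 0.68, a difference of -2.25 ± 0.44 (adjusted p = 0.0417). In Oasl, Ifit3 and Isg15 the groups did not overlap, and the day 28 arrays were closer together than those of day 7. The T cell chemokine Cxcl10 fell by 1.92, the RNA sensor Oas1a fell by 1.76, and Usp18, which removes Isg15 and damps the pathway, fell by 1.37 on the log2 scale.

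Stat2 and Irf9 were not called. Stat2 differed by -0.55 ± 0.18 (adjusted p = 0.16) while Irf9 differed by -0.64 ± 0.23 (adjusted p = 0.213), although their arrays did not overlap. Mx1, an antiviral GTPase, differed by -1.62 ± 0.51 (adjusted p = 0.151). Among called genes outside the list, named after their values were seen, Oas1k, Slfn4, Ifi44 and Cmpk2 were lower at day 28 by 2.95, 2.78, 1.88 and 1.88 log2 units in size, and Oas1 copies are similar enough in sequence that their probes may share signal. At day 0, Irf7 had a mean of 1.08 and at day 14 of 2.71.

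The count of 7 depended on single arrays: it was 1, 4 and 2 without day 7 replicate 1, 2 or 3, and 1, 2 and 1 without day 28 replicate 1, 2 or 3. Without day 7 replicate 3 the list's median was -1.16, and over all 20 alternatives the median kept its sign, between -1.70 and -1.16. With the scan as a random block 1 member was called. All 8 neutrophil markers also had negative differences, as given below, and their part in this result was not tested.

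Promoters of the list genes were searched for the core of the element that interferon-activated factors bind, and those of called genes with a match are shown. The core searched was GAAANNGAAA on either strand, in windows of 250 bases before to 50 bases after the RefSeq gene start (GRCr8), a motif chosen after the values were seen. Of the 19 genes 13 had a window in the RefSeq table and 6 of these (46.2%) held a match, against 3.92% of all 33469 windows. Among the 5 of the 7 called genes with a window, 4 held a match, and Oasl did not. Capitals mark the match, which for Irf7 and Ifit3 lies on the opposite strand and reads as its reverse complement, and which in Oas1a is 2 overlapping matches.
Irf7 promoter (chr1:205800058-205800117, minus strand): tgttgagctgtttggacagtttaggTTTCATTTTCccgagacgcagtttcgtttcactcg
Ifit3 promoter (chr1:241527257-241527316, plus strand): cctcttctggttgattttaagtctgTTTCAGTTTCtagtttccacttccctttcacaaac
Oas1a promoter (chr12:41330400-41330465, plus strand): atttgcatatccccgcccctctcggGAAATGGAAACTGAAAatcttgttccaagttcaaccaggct
Cxcl10 promoter (chr14:15988816-15988857, plus strand): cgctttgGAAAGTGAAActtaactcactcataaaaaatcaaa
Counted from the gene start, the match began at base -69 in Irf7, -44 in Ifit3, -41 in Oas1a and -243 in Cxcl10. It was also present in Gbp2 and Rsad2, which were not called, so that in this list a match and a call did not always go together.

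Class I molecules, which show peptides to killer T cells, are among the genes that interferon raises. All 9 measured genes of that pathway were negative, with 0 called by limma, 4 at an unadjusted p under 0.05, and a median of -0.76. The classical heavy chain RT1-A2 differed by -1.04 ± 0.26 (adjusted p = 0.0782) and its partner B2m by -1.14 ± 0.31 (adjusted p = 0.101). Among class I-like RT1-CE copies, named after their values were seen, RT1-CE7 went from 4.75, 4.48 and 5.77 to 3.39, 3.41 and 3.35 and RT1-CE1 from 5.47, 5.20 and 6.17 to 4.29, 4.44 and 4.14. Both were called lower (adjusted p = 0.0422 each), and since these copies are closely alike their probes may not tell them apart. With the scan as a random block both calls were lost (adjusted p = 0.0936 for RT1-CE7 and 0.0864 for RT1-CE1 by limma). Of 14 T and NK cell markers 13 were negative and 1 was called: Prf1, the pore protein of killer cells, read -0.43, -0.71 and -0.32 at day 7 and -1.67, -1.75 and -1.61 at day 28, a fall of 1.19 ± 0.23 on the log2 scale (adjusted p = 0.0381). The call was lost with the scan as a random block (adjusted p = 0.0668 by limma, the range over 20 alternatives being 2.33e-06 to 0.979) and without any single array but day 7 replicate 2.

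**Figure D2:**
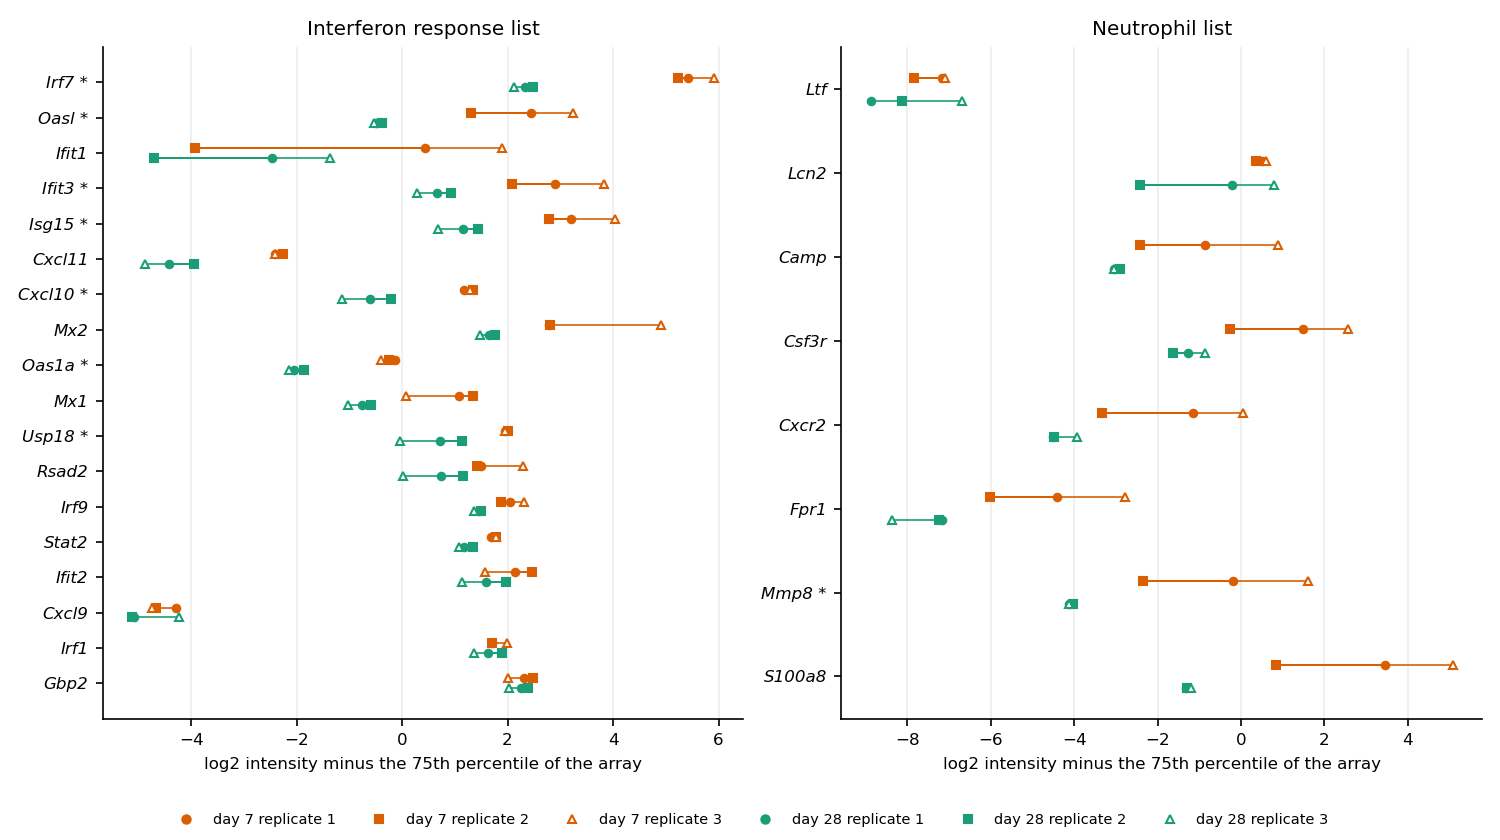
Level of the members of the interferon response list, 1 of which is not plotted (left), and the neutrophil list (right) on the 6 arrays, as log2 intensity minus the 75th percentile of the array. Orange is day 7, green is day 28, marker shape gives the replicate, lines span the 3 arrays, and asterisks mark the 7 and 1 genes that passed the test. Day 28 arrays of Irf7 lie 3.22 log2 units below those of day 7 on average.

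Neutrophils are short-lived cells that arrive early at injured tissue and carry proteases and antimicrobial proteins in granules. All 8 of their measured markers were negative, with a median of -2.67, and 1 was called lower. Mmp8, the neutrophil collagenase, read -0.20, -2.36 and 1.61 at day 7 and -4.13, -4.03 and -4.13 at day 28. The day 28 arrays were nearly identical, while those of day 7 were far apart, with replicate 3 highest and replicate 2 lowest. Mmp8 fell by 3.78 ± 0.76 on the log2 scale (adjusted p = 0.0441). S100a8, an abundant cytosolic protein of these cells, had the same order of arrays, 3.45, 0.84 and 5.08 against -1.33, -1.29 and -1.21 (-4.40 ± 1.04, adjusted p = 0.0713). The chemotactic receptor Fpr1 was well above background on all 3 day 7 arrays and on 0 of the 3 day 28 arrays (adjusted p = 0.0501).

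Outside the list, the 15 largest falls included Prok2, a chemotactic peptide of myeloid cells, and the myeloid genes Siglec5 and Stfa2l1. Prok2 read -2.93, -5.07 and -1.23 at day 7 and was not well above background on any day 28 array, a fall of at least 16.3-fold (adjusted p = 0.00886), and its second probe gave at least 15.3-fold. Siglec5, an inhibitory receptor, went from -0.36, -1.48 and 1.23 to -3.86, -3.18 and -5.04 (adjusted p = 0.0297), and Stfa2l1, a stefin, from 1.21, -0.78 and 2.12 to -2.87, -2.52 and -3.39 (adjusted p = 0.0348). In each of these genes, as in Mmp8, replicate 2 was the lowest of the day 7 arrays and replicate 3 the highest. The summed intensity of the neutrophil list, relative to the 75th percentile, was 17.1, 4.40 and 47.2 on the day 7 arrays and 1.91, 1.17 and 2.97 on those of day 28. Without day 7 replicate 2 the count of called members was 5, without replicate 3 it was 1, and without replicate 1 or any single day 28 array, or with the scan as a random block, it was 0.

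Red cell precursors make haemoglobin and a protein skeleton under their membrane. Of 8 erythroid markers 2 were lower at day 28, all 8 were negative and the median was -1.57. Epb42, a protein of that skeleton, read -0.62, -0.94 and -0.32 at day 7 and -2.79, -2.56 and -3.05 at day 28 (-2.18 ± 0.40, adjusted p = 0.0301). Klf1, the transcription factor that drives adult globin expression, read 0.39, 0.18 and 0.77 and then -1.14, -1.10 and -1.12 (-1.57 ± 0.28, adjusted p = 0.0284). In both genes the groups lay apart. Outside the list Car1, a carbonic anhydrase of red cells, was not well above background on any day 28 array and fell at least 10.1-fold (adjusted p = 0.0209), and Hemgn, named after its values were seen, fell by 2.32 on the log2 scale. Without day 7 replicate 2 the count of called list members stayed at 2, and it was 0 without any other single array or with the scan as a random block.

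Among the 15 largest falls were 4 genes best known from nerve cells. Syn2, which tethers synaptic vesicles, read -1.45, -1.09 and -3.12 at day 7 and -5.68, -5.06 and -5.94 at day 28, a fall of 3.67 ± 0.45 on the log2 scale (adjusted p = 0.00605). Gabra6, a subunit of the receptor for the inhibitory transmitter GABA, went from -2.43, -1.95 and -5.26 to -7.04, -6.09 and -6.84 (adjusted p = 0.0426). Gabra6 stayed called in 9 of 20 alternatives. Slitrk1, a synaptic adhesion protein, fell by 3.45 and the neural ubiquitin ligase Rnf112 fell by 3.37 on the log2 scale. In Syn2, Gabra6, Slitrk1 and Rnf112 alike, day 7 replicate 3 was the lowest array of its day and still stood above every day 28 array. Slc32a1, the transporter that loads GABA into vesicles, Gad2, which makes GABA, the transcription factor Neurod1 and the RNA-binding protein Elavl3 were also called lower, by 2.88, 3.19, 3.06 and 2.84 log2 units in size, and were named after their values were seen. Gad2 was not well above background on any day 28 array, which bounds its fall at 3.01-fold or more.

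The fixed list of general neuron markers did not move as one. Of its 10 measured members 1 was called, and that one was higher: Prph, a filament of peripheral neurons, went from -2.25, -2.20 and -2.43 to -1.32, -1.27 and -1.45 (0.95 ± 0.20, adjusted p = 0.0482). That call was lost with the scan as a random block (adjusted p = 0.0987 by limma, the range over 20 alternatives being 6.83e-06 to 0.979) and without any single array. The vesicle calcium sensor Syt1 differed by -2.15 ± 0.47 (adjusted p = 0.0562) and the neurofilament Nefm by -2.31 ± 0.60 (adjusted p = 0.0922), and the list's median was -0.31. Without day 7 replicate 3 the list had 0 higher and 3 lower calls, Syt1 and Nefm among them, with 7 of 10 members negative and a median of -0.997. The median was -0.14 without day 7 replicate 1, -0.03 without replicate 2 and -0.47 without day 28 replicate 2. Its summed intensity was 9.66, 11.7 and 6.26 on the day 7 arrays and 7.54, 7.40 and 7.92 on those of day 28. Of 11 markers of Schwann cells, which sheathe nerves, 0 were called by limma and 2 had an unadjusted p under 0.05, with a median of 0.56. Their median level was 1.12, 1.21 and -0.70 on the day 7 arrays and 0.93, 1.63 and -0.85 on those of day 28, so the days overlapped.

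The remaining large falls had no common list. Psd, an exchange factor for a small GTPase, read 4.57, 3.11 and 5.82 at day 7 and -0.62, -0.49 and -0.59 at day 28 (-5.07 ± 1.01, adjusted p = 0.0426). Psd stayed called in 9 of 20 alternatives and not with the scan as a random block (adjusted p = 0.0941 by limma). The salt-inducible kinase Sik1 went from -1.05, -0.66 and -3.72 to -5.87, -5.56 and -5.98 (adjusted p = 0.0189), and Tmem266, a voltage-sensing membrane protein, from -1.53, -1.26 and -1.63 to -5.36, -4.93 and -5.24 (adjusted p = 0.0038). Tmem266 was among the tightest of the falls and stayed called in 19 of 20 alternatives. Ttr, the carrier of thyroid hormone and retinol, was the 1 called gene of 10 liver plasma protein markers: it read 0.92, 1.21 and 0.14 at day 7 and -2.28, -1.97 and -2.79 at day 28 (-3.10 ± 0.45, adjusted p = 0.0139). Of those 10 markers 6 were positive and 4 negative, with a median of 0.08, and only 5 were well above background on all 3 arrays of either day. Serpinb11, Ly49i3 and the odorant receptor Or52z12 completed the 15, the last 2 being not well above background on any day 28 array, with falls of at least 4.45-fold and 8.04-fold.

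Skeletal muscle genes gave the largest rises. Fast muscle fibres are built from myosins such as Myh4 that pull on actin anchored at the Z-disc by Actn3 and Myoz1, with calcium released from stores held by Casq1. All 12 measured markers were positive, 3 were called higher and the median was 5.09. Myh4, a fast myosin heavy chain, read -4.39, -6.72 and -4.62 at day 7 and 5.04, -0.23 and 5.96 at day 28. The groups did not overlap, and within day 28 replicate 2 lay far below the other arrays. Myh4 rose by 8.83 ± 1.62 on the log2 scale (adjusted p = 0.0305).

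Replicate 2 was the lowest array of day 28 in all 12 members of the list. Myoz1 went from -3.38, -3.72 and -2.79 to 4.52, 0.70 and 5.57 (6.89 ± 1.34, adjusted p = 0.0393), and Actn3 from -1.83, -2.75 and -1.68 to 5.09, 1.47 and 6.18 (6.33 ± 1.28, adjusted p = 0.0441). The sarcomeric actin Acta1 differed by 4.92 ± 1.18 (adjusted p = 0.0735), and the muscle creatine kinase Ckm by 2.26 ± 0.73 (adjusted p = 0.161). The summed intensity of the 12 markers was 26.8, 31.4 and 15.4 on the day 7 arrays and 535, 68.2 and 993 on those of day 28. It was 16.3 to 19.1 in unoperated vein, so that 2 of the 3 day 28 samples held many times the muscle signal of any vein without surgery. On the day 14 arrays it was 77.7, 17.0 and 104, so that replicates 1 and 3 of day 14 stood above day 28 replicate 2. Skeletal muscle is no part of the vein wall, and the part of muscle attached to the samples in these values was not tested.

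Other genes expressed in muscle were also higher at day 28. Car3, a carbonic anhydrase of muscle and fat, went from -6.10, -6.55 and -7.16 to 0.62, -2.65 and 1.83 (6.54 ± 1.16, adjusted p = 0.0275). Its mean in unoperated vein was -0.71, near its day 28 mean of -0.07. The median level of the muscle list was -2.34 at day 0 and 4.09 at day 28, so Car3 did not share the course of the list from day 0. Myf6, a myogenic transcription factor, was not well above background on any day 7 array and rose at least 23.3-fold (adjusted p = 0.0377). Casq1, the muscle ADP-ribosyltransferase Art1, the muscle protein Abra and the ubiquitin ligase Trim63 rose by 5.01, 4.90, 3.77 and 3.65 on the log2 scale. Myf6, Casq1, Art1, Abra and Trim63 stayed called in 7, 8, 6, 9 and 6 of 20 alternatives. Xirp2, an actin-binding protein of muscle named after its values were seen, rose by 3.54. In all of these day 28 replicate 2 was again the lowest of its day. Without it 9 of the 12 markers were called and the median was 6.22, and Myh4 differed by 10.75. Without day 7 replicate 3 the count was 1, and without any other single array, or with the scan as a random block, it was 0.

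**Figure D3:**
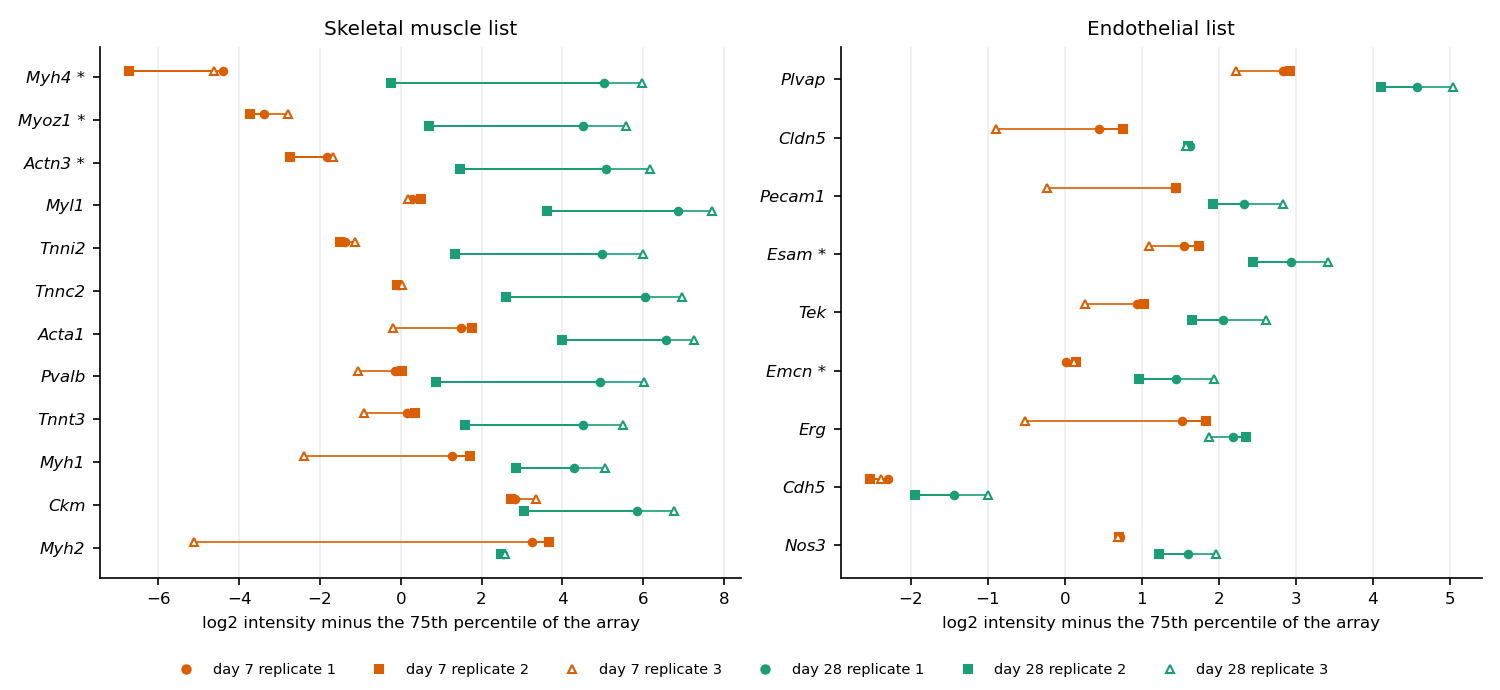
Level of each measured member of the skeletal muscle list (left) and the endothelial list (right) on the 6 arrays, as log2 intensity minus the 75th percentile of the array. Orange is day 7, green is day 28, marker shape gives the replicate, lines span the 3 arrays, and asterisks mark the 3 and 2 genes that passed the test. All 9 endothelial genes have their 3 day 28 arrays above their 3 day 7 arrays, and day 28 replicate 2 is the lowest array of its day for all 12 muscle genes.

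Endothelial cells line the lumen and seal it with junctions. All 9 measured markers were positive and in all 9 the day 28 arrays lay above those of day 7, which held for 15.5% of all probes, and the median was 1.37. Esam, an adhesion molecule of endothelial junctions, read 1.55, 1.74 and 1.10 at day 7 and 2.94, 2.45 and 3.42 at day 28, a rise of 1.47 ± 0.27 (adjusted p = 0.03). Emcn, a surface sialomucin typical of veins and capillaries, read 0.02, 0.15 and 0.12 and then 1.45, 0.96 and 1.94 (1.36 ± 0.29, adjusted p = 0.0498). These were the 2 called members, and in both day 28 replicate 2 was the lowest array of its day, as in the muscle genes. The summed intensity of the list was 54.4, 42.4 and 71.6 on the day 28 arrays. Whether these values share a source with the muscle signal was not tested. The fenestral protein Plvap differed by 1.91 ± 0.52 (adjusted p = 0.104), the nitric oxide synthase Nos3 by 0.89 ± 0.23 (adjusted p = 0.0868), and the junction cadherin Cdh5 by 0.95 ± 0.25 (adjusted p = 0.0981). The count was 2 without day 28 replicate 2, 1 without day 7 replicate 2, 0 without any other single array and 0 with the scan as a random block, and the median stayed between 1.00 and 1.61 in all 20 alternatives.

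Other genes that endothelium uses are given one by one, many of them chosen by their values. Thbd, thrombomodulin, which turns thrombin towards anticoagulation, read 0.22, 0.31 and 0.04 at day 7 and 1.80, 1.82 and 1.72 at day 28, a rise of 1.59 ± 0.23 (adjusted p = 0.0131). The day 28 arrays were close to one another. Gja5, the connexin of arterial endothelium, went from -0.88, -0.63 and -1.83 to 1.08, 0.46 and 1.69 (2.19 ± 0.41, adjusted p = 0.0316), the 1 call among 10 genes of arterial and venous identity. That call was lost with the scan as a random block (adjusted p = 0.0668 by limma, the range over 20 alternatives being 3.86e-06 to 0.979) and without day 7 replicate 1 or 3 or day 28 replicate 1 or 3. The Notch ligand Dll4 differed by 1.79 ± 0.65 (adjusted p = 0.209). Sele, the selectin that catches rolling leukocytes, went from -3.04, -3.10 and -2.47 to -0.73, -1.78 and 0.07 (2.06 ± 0.43, adjusted p = 0.0498). Sele stayed called in 8 of 20 alternatives and not with the scan as a random block (adjusted p = 0.0883 by limma). In Gja5 and Sele replicate 2 was again the lowest day 28 array, while in Thbd it was the highest. Among called genes named after their values were seen, the sphingolipid receptor S1pr1, the Ras-interacting lumen factor Rasip1, Angpt2, which loosens vessel walls, and the transcription factor Gata2 rose by 1.24, 1.66, 2.01 and 1.28. Both probes of Cav1, the coat protein of caveolae, were called, at 0.87 and 0.94, and its partner Cav2 rose by 1.32.

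Among the genes of vessel tone, both receptors for endothelin were higher. Ednrb rose by 1.94 ± 0.37 (adjusted p = 0.033) and Ednra, read at -1.71, -1.82 and -2.09 at day 7 and between -1.01 and -0.97 on all 3 day 28 arrays, by 0.88 ± 0.17 (adjusted p = 0.0347), 2 calls among 16 genes of the endothelin and angiotensin systems. Both were lost with the scan as a random block, where limma gave Ednrb an adjusted p of 0.0658 (5.59e-06 to 0.979 over 20 alternatives) and Ednra one of 0.0744 (4.75e-06 to 0.979). Leaving out day 7 replicate 2 or day 28 replicate 2 kept the call of Ednrb and leaving out any other array ended it, while Ednra lost its call whichever array was left out. Abcc9, the regulatory subunit of a potassium channel of vascular muscle, and Npy1r, a receptor for the sympathetic transmitter neuropeptide Y, rose by 1.79 and 1.85, again named after their values were seen. Ccl21, the chemokine that guides lymphocytes and dendritic cells into lymph vessels, read 2.09, 2.40 and 1.00 at day 7 and 4.89, 5.10 and 4.39 at day 28. It rose by 2.97 ± 0.54 (adjusted p = 0.0305) and was the 1 call of the 25 chemokines and receptors in that list, of which 20 had a negative difference. Its call was lost with the scan as a random block (adjusted p = 0.0668 by limma, the range over 20 alternatives being 6.23e-06 to 0.979) and without any single array but day 7 replicate 2. Outside that list Cxcl10 and Cxcl17, the latter named after its values were seen, were called lower, by 1.92 and 2.45 log2 units in size (adjusted p = 0.0426 and 0.00257 by limma). They stayed called in 8 and 18 of 20 alternatives.

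Fat cells surround vessels and secrete hormones. Of 9 adipocyte markers 2 were higher at day 28, 7 were positive and the median was 0.61. Adipoq, adiponectin, read -6.01, -6.01 and -6.49 at day 7 and -2.36, -2.83 and -1.94 at day 28, a rise of 3.80 ± 0.44 (adjusted p = 0.0048), while its mean in unoperated vein was 2.58. Lipe, hormone-sensitive lipase, went from -0.31, -0.14 and -0.51 to 1.34, 0.90 and 1.81 (1.67 ± 0.32, adjusted p = 0.036). For both the groups were well separated, and Adipoq at day 28 remained below day 0 on every array. In Adipoq and Lipe alike, day 28 replicate 2 was the lowest array of its day, as in the muscle genes. Thrsp, which promotes fat synthesis, was not well above background at day 7 and rose at least 3.37-fold (adjusted p = 0.0294). The count was 2 without day 28 replicate 2 and 1 without any other single array or with the scan as a random block. The median was 0.39 without day 7 replicate 1 and 0.29 without day 7 replicate 2. It changed sign under normexp background correction, where it was -0.14, as did Thrsp at -0.76.

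Growth factors act through receptors at the cell surface to keep neighbouring cells alive or dividing. Of 24 genes in this group 2 were higher and 18 were positive, with a median of 0.72. Ntf3, a neurotrophin for sensory and sympathetic neurons, read -6.18, -5.45 and -8.05 at day 7 and -1.86, -1.16 and -3.50 at day 28 (4.39 ± 0.70, adjusted p = 0.0185). Igf2, a fetal growth factor, read 0.85, 1.20 and -0.82 and then 2.89, 2.97 and 2.85 (2.49 ± 0.52, adjusted p = 0.0482). The day 28 arrays of Igf2 were close to one another, and day 7 replicate 3 lay well below the other arrays of its day. The call of Igf2 was lost with the scan as a random block (adjusted p = 0.0936 by limma, the range over 20 alternatives being 1.2e-05 to 0.979) and without any single array but day 7 replicate 2, while that of Ntf3 held under that block. Igfbp2, which binds insulin-like growth factors, rose by 3.44 (adjusted p = 0.0482, limma) and was named after its values were seen. It stayed called in 7 of 20 alternatives and lost its call with the scan as a random block (adjusted p = 0.0959 by limma). Of 18 genes of TGF-beta and BMP signalling, 16 were positive, 0 were called by limma and 4 had an unadjusted p under 0.05, with Bmp4 at 2.20 ± 0.64 (adjusted p = 0.128) and at 1.24 without day 7 replicate 3.

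Of 14 proteoglycan and matricellular genes 0 were called by limma and 2 had an unadjusted p under 0.05, with 12 positive and a median of 0.45. The list's median level was 4.44, 4.64 and 3.56 on the day 7 arrays and 4.55, 4.75 and 4.59 on those of day 28. Day 7 replicate 3 thus stood apart from the other arrays. Timp3, the inhibitor of metalloproteinases that stays bound to matrix, read 1.98, 2.21 and 1.15 at day 7 and 3.76, 3.58 and 4.08 at day 28, a rise of 2.03 ± 0.28 (adjusted p = 0.0105), the 1 call of 9 protease inhibitors. Adamts9, a protease of large proteoglycans, rose by 1.23 ± 0.20 (adjusted p = 0.0207), while Mmp8 fell, the 2 calls of 17 metalloproteinases. Kera, keratocan, a small proteoglycan of collagen-rich tissue, went from -4.76, -4.18 and -5.87 to -0.06, -0.30 and 0.13 (4.86 ± 0.66, adjusted p = 0.01). At day 0 and day 14 its means were -7.91 and -6.61, so among the days sampled it stood highest at day 28. Of 7 fibrillar collagen list members 0 were called by limma and 0 had an unadjusted p under 0.05, with a median of 0.44 that became -0.04 without day 7 replicate 3, and Eln differed by 2.45 ± 1.28 (adjusted p = 0.381), and without day 7 replicate 3 by 0.54.

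The other large rises were of mixed kind. Dapl1 read -3.16, -2.78 and -2.44 at day 7 and 1.03, -0.03 and 1.58 at day 28 (3.65 ± 0.35, adjusted p = 0.00264). RGD1565959 went from -0.09, 1.65 and -0.23 to 4.80, 4.73 and 4.40 (4.20 ± 0.49, adjusted p = 0.0048). RGD1565959 stayed called in 19 and Dapl1 in 18 of 20 alternatives. Pkhd1l1, a large membrane protein, rose by 3.76 (adjusted p = 0.031). Tacr1, the receptor for substance P, the oxygenase Fmo2 and the reductase Akr1c15 rose by 3.63, 3.56 and 3.48 and were named after their values were seen.

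**Figure D4:**
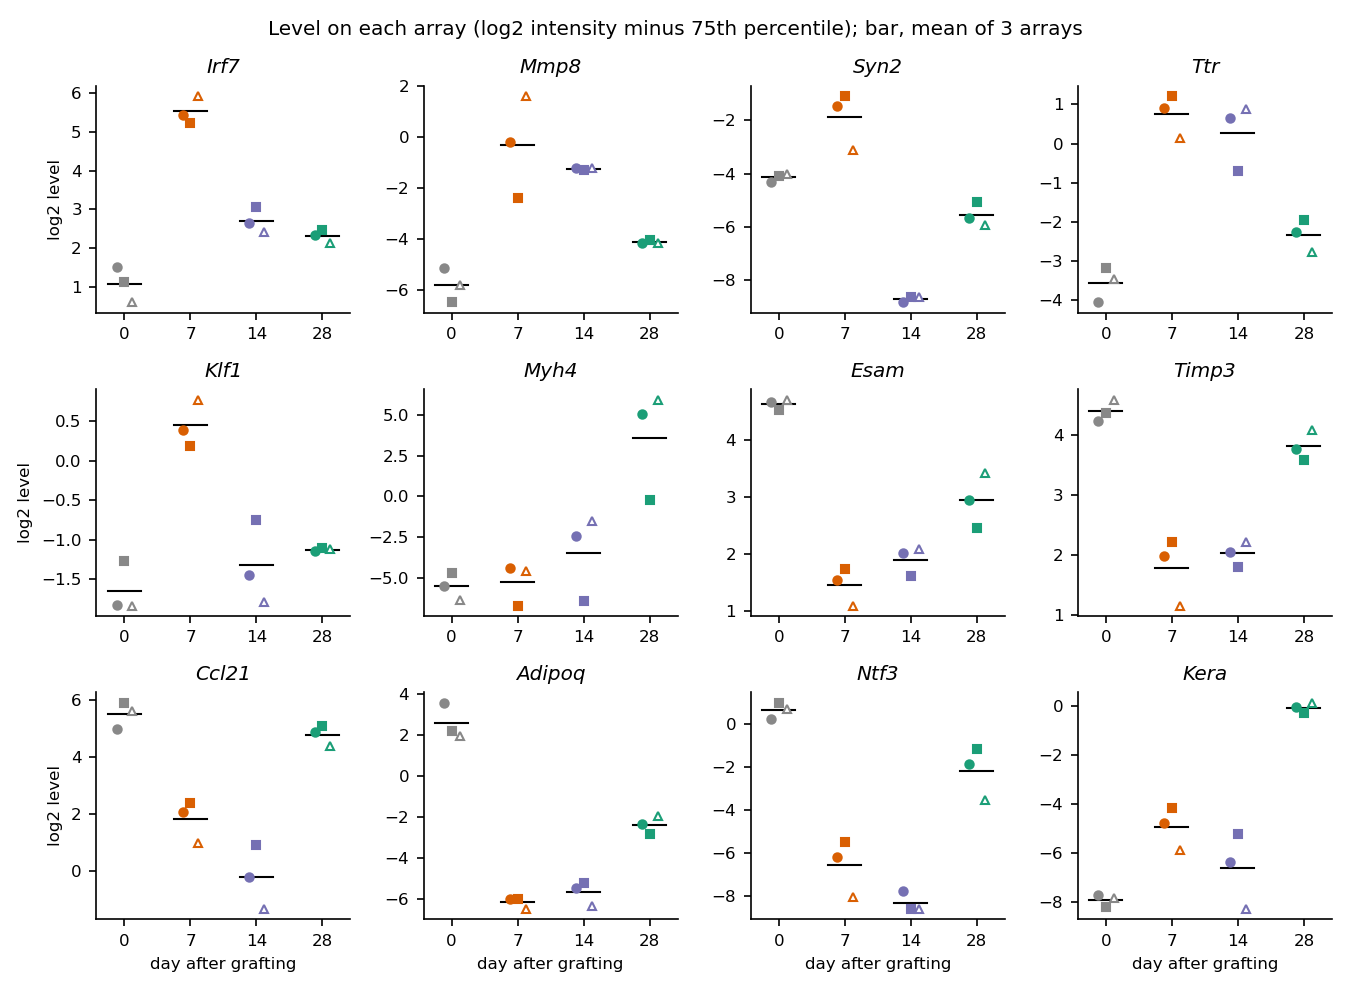
Level of 12 called genes on all 12 arrays, as log2 intensity minus the 75th percentile of the array, by day after grafting (day 0 is vein without surgery). Marker shape gives the replicate and the bar is the mean of 3 arrays. Irf7, Mmp8, Syn2, Ttr and Klf1 are lower and the other 7 genes are higher at day 28 than at day 7, and Myh4 has 1 low array at day 28.

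Contractile, cell cycle and class II genes had 0 calls by limma between the days, and 1, 1 and 2 members with an unadjusted p under 0.05. The 12 contractile smooth muscle genes ranged from -0.92 to 1.24 with a median of 0.35, which became 0.66 without day 7 replicate 2, 0.53 without replicate 1 and -0.07 without replicate 3. The intermediate filament Des came nearest to the threshold (1.05 ± 0.28, adjusted p = 0.1). It read 5.42, 4.63 and 5.83 at day 28, lowest on replicate 2 as in the skeletal muscle genes. Without that array Des was called higher (adjusted p = 0.0254, limma). The 20 cell cycle genes ranged from -1.27 to 0.92 with a median of -0.13 (-0.23 without day 7 replicate 2 and -0.06 without replicate 3), and the cyclin Ccnd1 had the smallest p (0.92 ± 0.33, adjusted p = 0.204). The 11 class II genes, which show peptides to helper T cells, had a median of -0.27, which became -0.09 without day 7 replicate 2 and -0.43 without replicate 3. Without day 28 replicate 2 the list had 1 call. Its differences ranged upwards from -0.81. Their regulator Ciita differed by -0.81 ± 0.32 (adjusted p = 0.244). The top of that range was RT1-Bb at 7.49, which was not well above background on any day 7 array. It read -7.61, -8.98 and -8.05 at day 7 and 2.62, -8.72 and 3.94 at day 28 (adjusted p = 0.185, limma). Of the day 28 arrays 2 were high and the other was at background like those of day 7, so no fold bound is given. The 15 macrophage markers had 0 calls by limma, 2 members with an unadjusted p under 0.05, 12 negative differences and a median of -0.60 (-0.39 without day 7 replicate 3).

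Promoter motifs of the contractile and cell cycle lists, which had no call, and of the skeletal muscle list are given as a description. The skeletal muscle search was not among those planned. A CArG box, to which serum response factor binds, was found on either strand in 0 of 8 contractile gene windows, in 2 of 11 skeletal muscle windows (Myh4 and Acta1) and in 1.64% of all windows. Of the 3 called skeletal muscle genes, Myh4 held a match and Actn3 and Myoz1 did not. CCAAT was found in 8 of 14 cell cycle windows (57.1%) against 37.5% of all, and the CHR element TTTGAA in 5 of 14 (35.7%) against 18.3%.

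**Figure D5:**
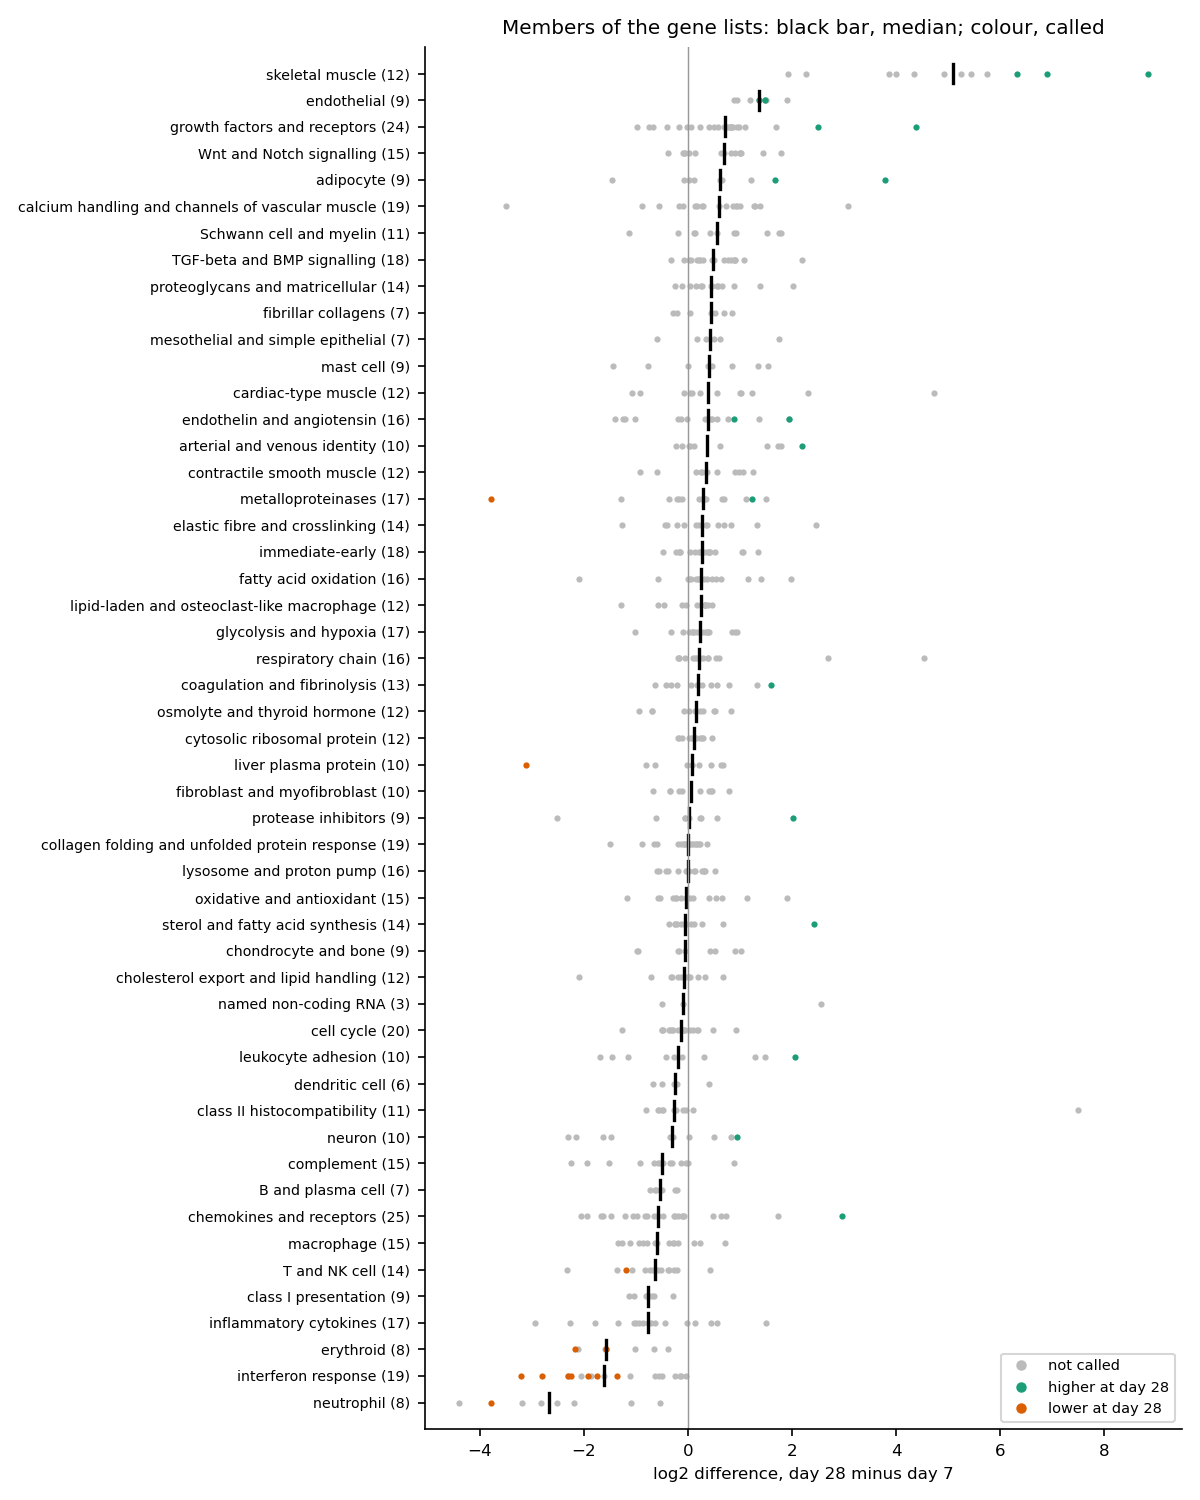
Log2 difference (day 28 minus day 7) of every measured member of the 51 gene lists, 1 point per gene, with the number of members in parentheses and the median as a black bar. Green points were called higher and orange points lower at day 28. The skeletal muscle list has the highest median, 5.09, and the neutrophil list the lowest, -2.67.

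Some of the largest differences came from transcripts without a gene symbol here. XR_006359, a RefSeq predicted non-coding transcript, read 7.34, 5.81 and 8.13 at day 7 and -0.56, -0.11 and -1.55 at day 28, a fall of 7.84 ± 0.91 on the log2 scale (adjusted p = 0.0048). MRAK149123 and MRAK148606, transcripts inferred from mouse records, fell by 5.99 and 6.02, MRAK149123 from 8.01, 7.23 and 8.46 to 2.08, 2.88 and 0.77 (adjusted p = 0.00157). All 3 had means between 7.20 and 8.70 at days 0 and 14, so their lowest level was at day 28. Upwards, MRAK164133 went from -2.35, -1.99 and -3.04 to 3.67, 3.40 and 3.30 (5.92 ± 0.55, adjusted p = 0.00226), and MRAK020463 rose by 5.66 (adjusted p = 0.0498). MRAK164133 stayed called in 19 of 20 alternatives and MRAK020463 in 5, not with the scan as a random block (adjusted p = 0.0808 by limma). NM_001106257.1, a coding record that matched no current symbol, was not well above background at day 7 and rose at least 169-fold (adjusted p = 0.0119), with day 28 replicate 2 again lowest at -1.17 against 1.65 and 2.44. By class, 1.57% of coding probes, 1.06% of predicted non-coding probes, 1.34% of probes inferred from mouse records and 0.624% of probes for ultraconserved regions were called.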

How the data were processed

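Total RNA of 12 vein samples was hybridised, 1 sample per 1-colour array, per the labels' protocols. The deposited scanner files hold spot intensity (gProcessedSignal, background-subtracted by Agilent Feature Extraction 11.0.1.1, per the submitters' processing notes and the file headers). The members and gene lists were chosen with earlier results of these data known. Spots marked as outliers were left out (7348 over 12 arrays). For each array log2 of the signal minus its 75th percentile was taken, spots of a probe were averaged, and all 24684 gene probes were kept. The deposited processed table holds values on a log2 scale made by the authors, whose normalization is not given in the sources used here. It was used as an alternative only, its column medians being 7.149 to 7.153.

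limma 3.58.1 in R 4.3.3 (lmFit, eBayes) was fitted to all 12 arrays with 4 day means, leaving 8 residual degrees of freedom, and p-values were adjusted by Benjamini-Hochberg with a threshold of 0.05. The number of arrays limits the precision. "At least" folds apply where all 3 arrays of a day fell short of the scanner's background criterion: the bright day's mean was set against the mean of, per array, the higher of the dim value and the lowest signal well above background. Symbols came from matching accessions to RefSeq (GRCr8): 14294 probes had 1 symbol and 10390 none. A gene's level is that of its brightest probe. The 51 lists held 757 genes, 641 of them measured. Named genes were the 15 largest called rises and falls, up to 4 called members per list or else the 2 with the smallest p, and 3 called probes per direction without a symbol. Other genes were chosen after their values were seen, as were uncalled members beyond those 2. The replicate numbers used here follow accession order, since the labels number every sample 1. Normexp was run on median spot signals, which the files hold in place of means. Alternatives also covered filters, scaling, scan blocks, array weights and leaving out arrays. The fit was tested on simulated data. Some results are not reported here, though the list counts include them.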

Additional observations from a re-analysis of the deposited data

How the results depend on the processing

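The 346 calls (137 higher, 209 lower) moved by over 1.5 times in these settings. With normexp there were 53 (12 higher, 41 lower), and 33 of the 346 changed sign. That correction was poor on day 7 replicate 2, where 7 spots had a local background above 100, and without such spots, a setting chosen after seeing the data, 331 were called. With only the 6 arrays compared there were 126 (34 higher, 92 lower), and with only the 9 graft arrays, also chosen after seeing the data, 795 (294 higher, 501 lower). The scan as a random block gave 140 (53 higher, 87 lower) and as a fixed block 0 (0 higher, 0 lower), with 795 at an unadjusted p under 0.05. Of the 58 called probes named by the rules above, 24 stayed called under the random block and 0 under the fixed block. Array quality weights gave 14731 (5974 higher, 8757 lower). The weights ran from 0.095 (day 0 replicate 3) to 16.8 (day 28 replicate 1). Day 7 replicate 1 had 7.74, so that 1 array carried most of the weight on each of the days compared. That setting is counted among the 20 alternatives. Leaving out both arrays with many non-uniform spots, day 0 replicate 3 and day 7 replicate 3, gave 900 (208 higher, 692 lower). Leaving out 1 array gave 34 to 470 calls, 11 to 181 higher and 23 to 381 lower. The cause was not tested. Of the calls, 22.6% were higher with normexp, 18.9% without day 7 replicate 3 and 64.4% without day 28 replicate 2, against 39.6%. Thrsp changed sign with normexp (-0.76). Of all other values of named genes under the alternatives, 1599 kept their side of the threshold, 663 lost the call and 56 gained one. No paired analysis was possible because the labels give every sample the same replicate number. Signal over background limits genes not well above background on a day to a bound.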
